A study of Homo sapiens with 8 samples.

Results

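The 4 human tropomyosin genes and 6 of their partners on contractile actin filaments were examined in NGP cells, an established neuroblastoma line. The genes are TPM1, TPM2, TPM3, TPM4, ACTA2, TAGLN, TAGLN2, CNN3, CALD1 and MYL9. They were chosen by function, with the difference between the groups already known, so their values are given as a description. The platform annotation assigned 20 of the 50599 probes fitted to these 10 genes, of 21524 genes named in all. Total RNA labelled with Cyanine3 was hybridised to 8 one-color Agilent arrays, 4 of mock-transduced cells and 4 labelled CFC1. Cells of both groups had received a lentiviral construct and puromycin selection. The construct of the second group held cDNA of CFC1, which encodes the Nodal co-receptor Cryptic. Nothing in the labels states that a group's 4 samples came from separate cultures, so the errors below cover the spread of these arrays only, and that spread may be technical.

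Each value is a logarithm, read here as log2, set against a baseline per probe that is not stated. A value therefore shows how arrays differ for 1 probe and gives no level of expression. Levels of different genes cannot be compared, and whether a cell type marker is present cannot be read from the table. The median difference of all probes, arrays labelled CFC1 minus mock arrays, was -0.13, and -0.051 without mock replicate 4. The CFC1 probe had lower values in those arrays, with a difference of -0.80 (95% interval -1.45 to -0.14, limma adjusted p = 0.0546). Directions below rest on the labels alone. In such bulk RNA, fewer cells that express a gene and less RNA per cell cannot be told apart.

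Tropomyosins are coiled-coil proteins that polymerise head to tail along the groove of the actin filament and control which other proteins can bind it. Each gene gives several isoforms through alternative promoters and exons, some confined to muscle and others present in most cells. Filaments that carry tropomyosin pair with myosin II to make contractile bundles and stress fibres. Caldesmon, calponins and transgelins bind the same filaments, and serum response factor (SRF) with its actin-sensing coactivators is known to control many of these genes through an element called the CArG box.

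The 250 bases before annotated starts of the 4 tropomyosin genes are shown because members of this family differed between the groups in size and direction. They are RefSeq sequences of GRCh38.p14, printed 5′ to 3′ along the strand of the gene. For TPM2, TPM1 and TPM3 the capitals mark CG dinucleotides, and for TPM4 they mark a CArG box. The stretches lie at chr9:35690057-35690306 (minus strand, TPM2), chr15:63048239-63048488 (plus, TPM1), chr1:154183219-154183468 (minus, TPM3) and chr19:16067288-16067537 (plus, TPM4).
TPM2: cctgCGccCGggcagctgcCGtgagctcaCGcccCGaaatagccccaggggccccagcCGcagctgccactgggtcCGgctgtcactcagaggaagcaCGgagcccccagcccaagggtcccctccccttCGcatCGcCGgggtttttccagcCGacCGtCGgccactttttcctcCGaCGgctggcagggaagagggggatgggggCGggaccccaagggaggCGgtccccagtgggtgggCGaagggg
TPM1: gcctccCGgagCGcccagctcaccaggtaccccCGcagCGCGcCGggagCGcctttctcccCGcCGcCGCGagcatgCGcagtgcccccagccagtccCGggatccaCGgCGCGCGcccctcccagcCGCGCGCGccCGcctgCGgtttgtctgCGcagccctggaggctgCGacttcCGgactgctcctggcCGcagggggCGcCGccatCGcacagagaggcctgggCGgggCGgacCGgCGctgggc
TPM3: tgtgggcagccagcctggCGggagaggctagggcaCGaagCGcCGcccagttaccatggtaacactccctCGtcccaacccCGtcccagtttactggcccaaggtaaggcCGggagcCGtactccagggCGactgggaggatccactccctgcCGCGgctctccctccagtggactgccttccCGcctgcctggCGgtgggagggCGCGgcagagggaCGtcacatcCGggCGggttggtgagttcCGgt
TPM4: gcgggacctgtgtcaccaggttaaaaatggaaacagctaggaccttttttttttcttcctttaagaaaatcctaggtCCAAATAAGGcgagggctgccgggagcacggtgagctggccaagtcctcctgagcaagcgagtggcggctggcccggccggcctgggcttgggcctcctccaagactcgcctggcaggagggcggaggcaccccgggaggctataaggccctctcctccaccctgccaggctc

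The sequence before this TPM2 start held 19 CG dinucleotides, with an observed over expected ratio of 0.593. The TPM1 stretch held 34 (ratio 0.894) and the TPM3 stretch 19 (ratio 0.65). The median over all 35116 starts of the RefSeq table was 11, with a median ratio of 0.558. The TPM4 stretch held 11 (ratio 0.47). The table holds a second start of TPM2, with 25 CG dinucleotides before it, and of TPM3, with 1. Other starts of TPM4 had 27 (ratio 0.796) and 30 (ratio 0.843) before them, and no exact match of a CArG box. These counts therefore depend on the start shown. The table held 19 starts of 8 of the 10 genes, and TAGLN and MYL9 were not matched. A CArG box, CC and GG around 6 bases that are each A or T, reads the same pattern on both strands. This exact pattern was found before 1 of the 19 starts, at 173 bases before this start of TPM4, and before 1.16% of all starts in the table. Stretches with a G or C among the 6 bases were not counted, such as ccctatatgg and ccttgtttgg before a start of ACTA2. The count therefore does not show that the other genes lack such elements. A match of the pattern is a description and shows no binding.

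Of the 20 probes, 12 had higher and 4 had lower values in arrays labelled CFC1, without overlap between the groups, and 4 overlapped. Over all probes 42.6% did not overlap, 20.3% higher and 22.3% lower. By an adjusted p under 0.05 in limma with Benjamini-Hochberg adjustment, 16 of the 20 passed, 12 higher and 4 lower, against 42.1% of all probes, 20.0% higher and 22.1% lower. Of all calls 47.6% were higher, against 57.3% after quantile normalization and 53.5% with scaling to the E1A spots. The sets of 16 are not the same, because 1 TPM1 probe did not overlap and did not pass, and 1 TPM3 probe passed and overlapped. A difference of at least 1 on the log2 scale, which is 2-fold, was found for 7 probes, all higher, against 17.5% of all probes, 7.79% higher. The median difference was 0.29 over the 20 probes, 0.95 over the 13 tropomyosin probes and 0.08 over the 7 probes of the partners. Since the genes were chosen with this contrast already known, nothing is read from these counts.

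TPM2, which encodes beta-tropomyosin, differed most. Its probe A_23_P216501 stood at -8.14, -7.97, -7.87 and -8.04 in mock replicates 1 to 4 and at -0.04, -0.10, -0.01 and 0.00 in the arrays labelled CFC1. Its probe A_33_P3270599 stood at -9.53, -7.50, -9.35 and -9.83 in mock and at -0.12, -0.14, 0.00 and -0.02 in the arrays labelled CFC1. All mock arrays were far below all arrays labelled CFC1 on both probes, and mock replicate 2 was the highest of its group on the second probe. The differences were 7.97 (95% interval 7.81 to 8.12) and 8.98 (7.85 to 10.12), n = 4 arrays per group. Among the 50599 probes they were the 12th and the 7th largest rises. The table has no flags for background or saturation, so the sizes of 250-fold and 506-fold are fitted values whose dim side may lie near background. After quantile normalization they were 5.50 and 6.35.

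TPM3 encodes a tropomyosin of slow muscle fibres and, through other isoforms, of most cell types. On 5 of its 6 probes it was higher in the arrays labelled CFC1 by 0.95 to 1.34 without overlap. Probe A_24_P211206 stood at -1.23, -1.39, -1.48 and -1.33 in mock replicates 1 to 4 and between -0.03 and 0.00 in the arrays labelled CFC1, a difference of 1.34 (95% interval 1.19 to 1.48). The 4 probes annotated to transcript NM_001043352 differed by 1.34, 1.31, 1.17 and 1.0. The probe of NM_001043351, A_33_P3346193, differed by 0.95 (0.56 to 1.33), with arrays labelled CFC1 spread from -0.71 to 0.00, and by 0.63 after quantile normalization. The probe of NM_152263, A_33_P3223990, was apart from the other 5. It stood at -0.38, -0.43, -0.36 and -0.12 in mock and at -0.14, -0.02, -0.01 and 0.00 in the arrays labelled CFC1, a difference of 0.28 (0.09 to 0.46). Its groups overlapped, and it did not pass without mock replicate 1 (0.257), 2 (0.239) or 3 (0.264), nor without CFC1 replicate 2 (0.268), 3 (0.266) or 4 (0.261).

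TPM3 has processed pseudogenes, and the probe sequences were not used here, so signal from such copies cannot be told apart from that of TPM3. A probe of the pseudogene TPM3P9 rose by 0.74 (SE 0.068, limma adjusted p = 5.53e-05). It stood at -0.62 ± 0.098 in mock and 0.13 ± 0.079 in the arrays labelled CFC1 (SD, n = 4).

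TPM1, the gene of alpha-tropomyosin, was higher by small amounts on its 3 probes. Probe A_33_P3335966 stood at -0.39, -0.39, -0.30 and -0.32 in mock and at -0.06, 0.00, -0.04 and -0.05 in the arrays labelled CFC1, a difference of 0.31 (95% interval 0.21 to 0.42). The other probes differed by 0.19 (0.07 to 0.31, A_24_P44462) and 0.13 (-0.02 to 0.28, A_23_P206018). No TPM1 probe overlapped between the groups, though the smallest difference had an interval that included 0. The difference of A_23_P206018 was 0.071 without mock replicate 2. With arrays centred on their median A_24_P44462 did not pass (0.231), and A_23_P206018 did once arrays were scaled to the E1A spots (0.205).

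TPM4, a tropomyosin of non-muscle cells and platelets, was the tropomyosin with lower values in the arrays labelled CFC1. Probe A_23_P141974 stood at -0.02, -0.10, 0.02 and -0.03 in mock and at -0.36, -0.44, -0.31 and -0.34 in the arrays labelled CFC1. Probe A_24_P82880 stood at 0.21, 0.25, 0.15 and 0.20 in mock and at -0.14, -0.17, -0.11 and -0.09 in the arrays labelled CFC1. The groups did not overlap on either probe, and both differed by -0.33, with 95% intervals of -0.45 to -0.21 and -0.43 to -0.23. After quantile normalization the second was -0.215. Within the same arrays, TPM2 minus TPM4, each as the mean of its probes, ran from -9.02 to -7.81 in mock and from 0.17 to 0.21 in the arrays labelled CFC1.

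**Figure D1:**
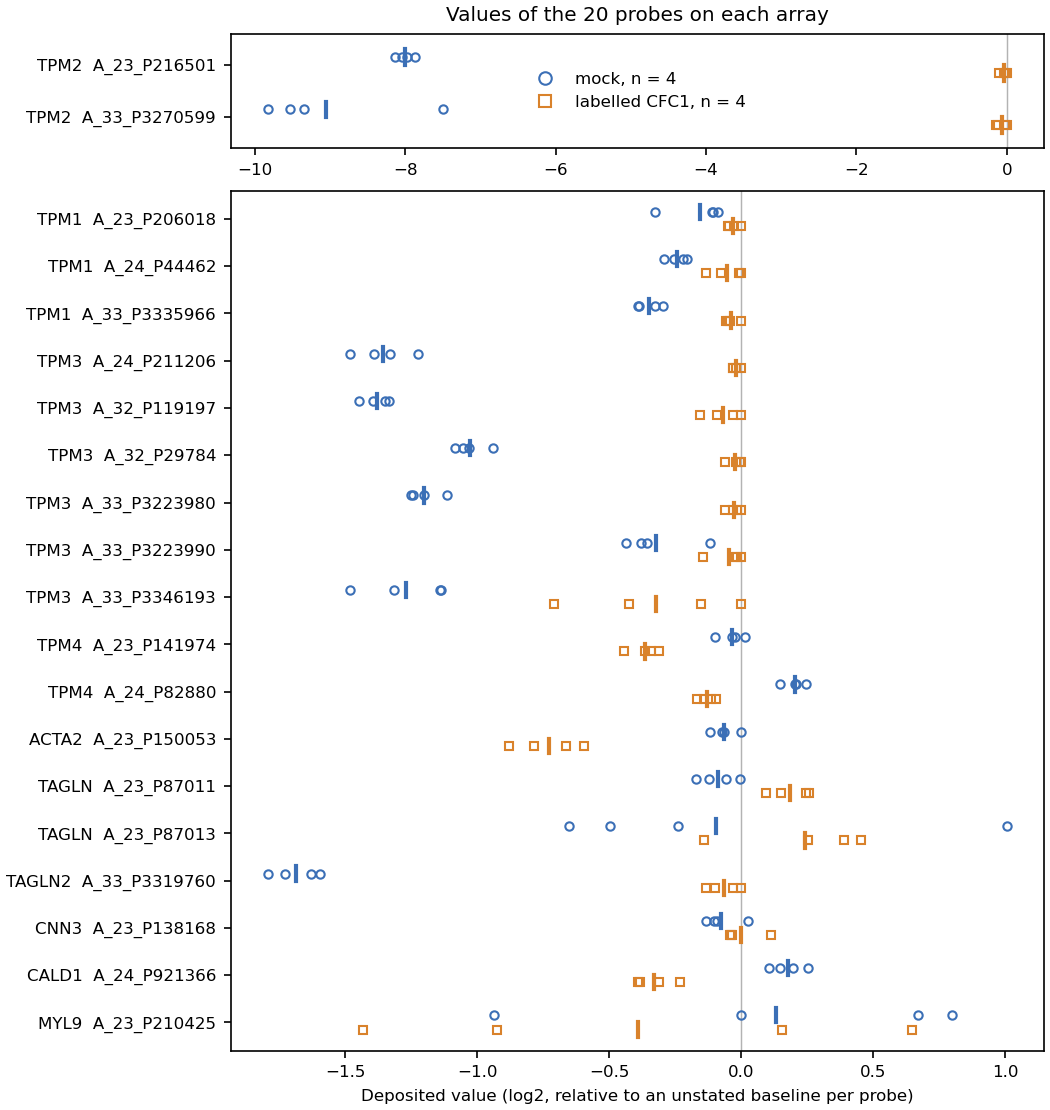
Deposited log2 value of each of the 20 probes (rows) on each of 8 arrays, relative to an unstated baseline per probe. Circles are mock arrays, squares are arrays labelled CFC1 and bars are group means; TPM2 is drawn on its own axis because its mock arrays lie between -9.83 and -7.50.

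Among the partners, the actin gene was lower. ACTA2, the actin of vascular smooth muscle and myofibroblasts, stood at -0.12, -0.07, 0.00 and -0.06 in mock and at -0.59, -0.66, -0.78 and -0.88 in the arrays labelled CFC1. The groups did not overlap, and the difference was -0.67 (95% interval -0.83 to -0.50). Muscle actins are similar in sequence, and whether this probe separates them was not determined. The 2 probes of its antisense transcript ACTA2-AS1 differed by -0.29 (SE 0.15, limma adjusted p = 0.188) and -0.35 (SE 0.206, adjusted p = 0.238) and did not pass.

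CALD1 encodes caldesmon, which binds actin, tropomyosin and myosin and inhibits their interaction. Its probe stood at 0.25, 0.20, 0.11 and 0.15 in mock and at -0.23, -0.31, -0.39 and -0.38 in the arrays labelled CFC1. The groups did not overlap, and the difference was -0.51 (95% interval -0.64 to -0.37). Its lower values thus went with those of ACTA2 and TPM4 and against those of TPM1, TPM2 and TPM3.

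The transgelins and calponin 3 share a calponin homology domain. TAGLN2, a transgelin of many non-muscle cells, stood at -1.73, -1.79, -1.63 and -1.60 in mock and at -0.10, -0.13, -0.03 and 0.00 in the arrays labelled CFC1. The difference was 1.62 (95% interval 1.48 to 1.77), the largest after TPM2, without overlap. TAGLN, the smooth muscle transgelin SM22, has 2 probes. A_23_P87011 stood at 0.00, -0.17, -0.12 and -0.06 in mock and at 0.15, 0.24, 0.26 and 0.09 in the arrays labelled CFC1, a difference of 0.28 (0.13 to 0.42, or 0.46 after quantile normalization) without overlap. A_23_P87013 stood at -0.24, 1.01, -0.50 and -0.65 in mock and at 0.39, 0.25, 0.46 and -0.14 in the arrays labelled CFC1. Mock replicate 2 was the highest array there, the groups overlapped, and the difference was 0.34 (-0.53 to 1.20). It was 0.703 and passed the threshold without that array. It was 0.202 without mock replicate 3, 0.15 without mock replicate 4 and 0.523 after quantile normalization. CNN3, the calponin of non-muscle cells, stood at -0.10, -0.13, 0.02 and -0.09 in mock and at -0.04, -0.04, 0.11 and -0.03 in the arrays labelled CFC1. The groups overlapped, with a difference of 0.08 (-0.06 to 0.21). It was 0.039 without CFC1 replicate 3, 0.118 with arrays centred on their median, 0.15 after quantile normalization and 0.153 with scaling to the E1A spots.

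MYL9, the regulatory light chain of smooth muscle and non-muscle myosin II, could not be placed. Its probe stood at 0.80, 0.00, 0.67 and -0.94 in mock and at 0.65, 0.16, -0.93 and -1.43 in the arrays labelled CFC1. Each group spanned over 1 log2 unit and the groups overlapped, with a difference of -0.52 (95% interval -1.86 to 0.81). Leaving out 1 array moved it from -0.174 (without CFC1 replicate 4) to -0.879 (without mock replicate 4). Its pooled SD lay at the 94.2th percentile of all probes, beside 91.5 for the second TPM2 probe and 85.0 for the second TAGLN probe. The other 17 probes lay between 3.84 and 62.0.

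**Figure D2:**
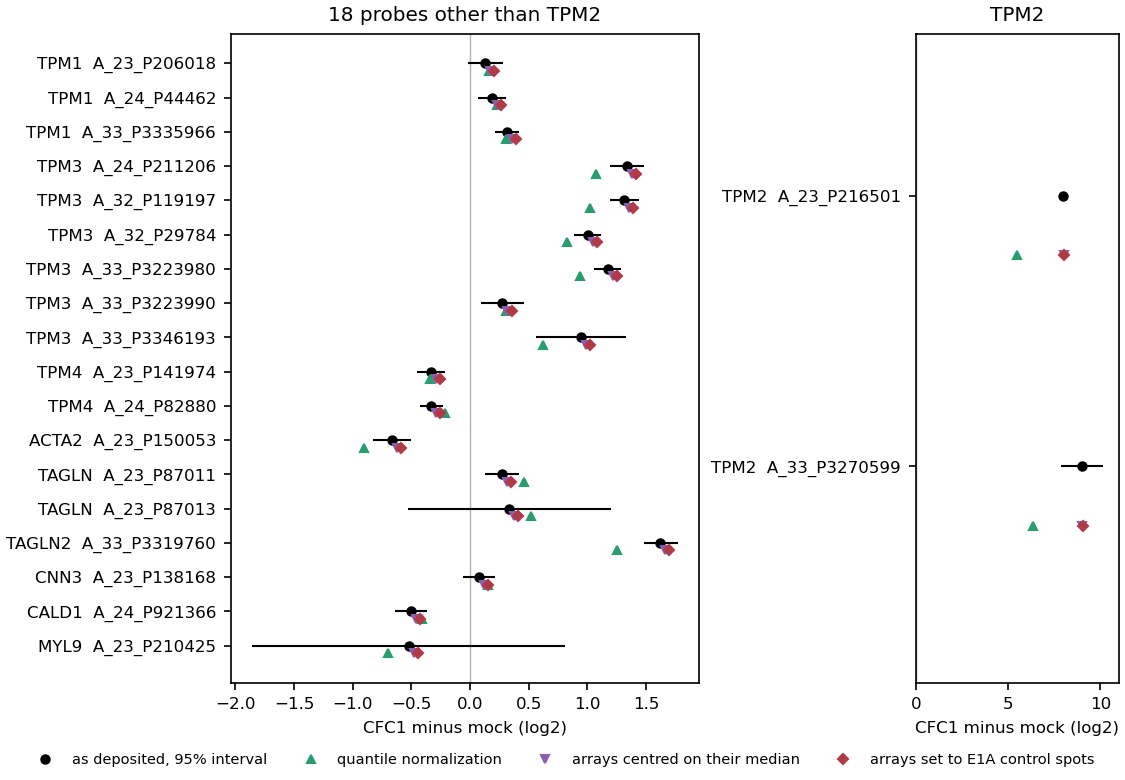
Difference between the groups, arrays labelled CFC1 minus mock arrays on the log2 scale, for the 18 probes other than TPM2 (left) and for TPM2 (right). Black points and lines are the values as deposited with 95% intervals of the limma fit (n = 4 arrays per group), and coloured marks are other scalings of the arrays; the sign of each probe was the same under the 4 scalings.

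The genes around each member were chosen after the values above were seen, as the 3 nearest measured protein-coding genes on either side in RefSeq order. The large TPM2 difference was not seen in its neighbours on chromosome 9. Of 6, 1 rose and 3 fell, and they ranged from -1.17 for TLN1, the focal adhesion protein talin, to 0.19 for CREB3, a membrane-bound transcription factor. Around TAGLN on chromosome 11, 5 of 6 rose and 1 had probes called in both directions. They ranged from 0.50 to 1.44, all above the 0.31 of TAGLN. Around MYL9 on chromosome 20, 5 of 6 rose, by 0.27 to 1.71. The neighbour that was not called stood at 0.23, with probes at -0.13 and 0.59. Of all named genes 58.0% were called in 1 direction, 30.0% higher and 28.0% lower, and 1.82% in both. Around ACTA2 on chromosome 10, 2 of 6 rose, 1 fell and 3 did not pass. LIPM, a lipase family member, fell by 1.46, STAMBPL1, a deubiquitinase, rose by 0.23, and FAS, a death receptor, rose by 1.89 (mean of 3 probes from 0.66 to 2.57). None of the 6 neighbours of TPM4 or of CALD1 was called. Of the 6 around TPM1, 1 rose and 1 fell, and of those around CNN3, 2 rose and 3 fell. Around TAGLN2 2 of 6 rose, and around TPM3 2 rose and 1 had probes called in both directions.

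**Figure D3:**
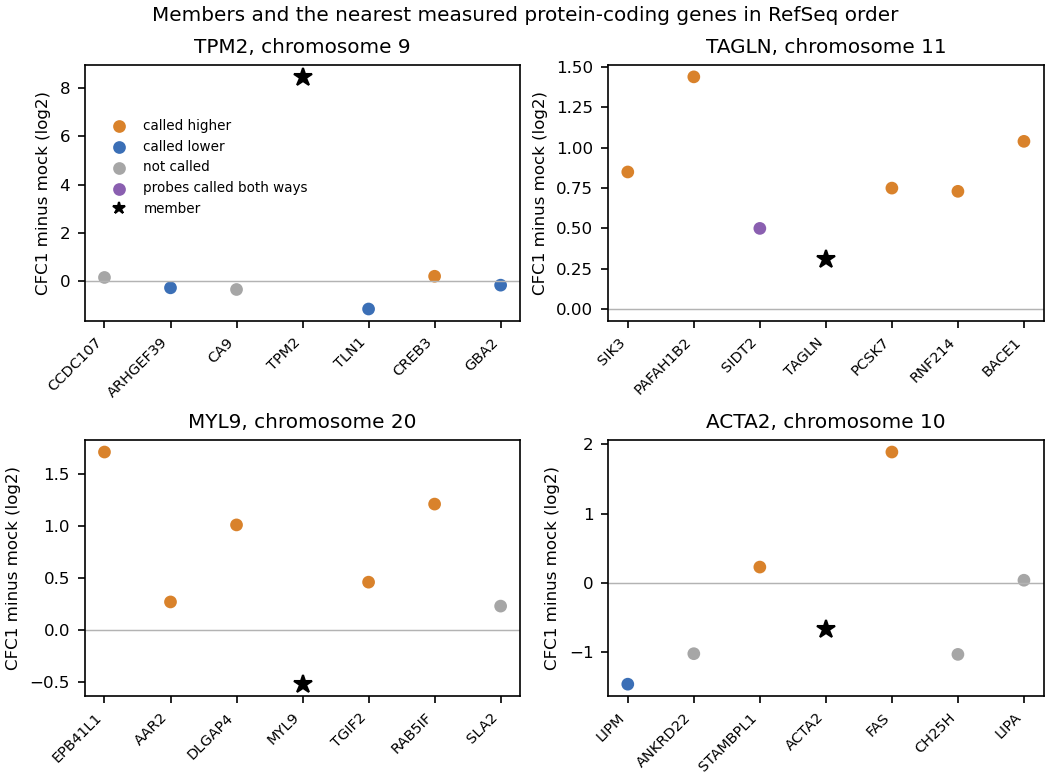
Difference between the groups, arrays labelled CFC1 minus mock arrays (log2, mean of a gene's probes), for 4 members (stars) and the 3 nearest measured protein-coding genes on each side in RefSeq order (points, coloured by call). TPM2 stands at 8.47 while its neighbours lie from -1.17 to 0.19, and the neighbours of TAGLN lie from 0.50 to 1.44.

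Other genes of the actin cytoskeleton were read from 6 lists drawn up by role. A gene was counted as called where at least 1 probe passed limma and all its called probes went one way. Of 63 genes measured, 32 rose, 18 fell, 2 had probes called in both directions and 11 did not pass. Over all named genes 30.0% rose, 28.0% fell and 1.82% had probes called in both directions. The median of the lists was 0.16, and -0.09 over all named genes.

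Of 5 other actin genes, 4 rose and 1 did not pass. The cytoplasmic actins ACTB and ACTG1 each rose by 0.31, and skeletal muscle ACTA1 by 0.24. ACTG2, of enteric smooth muscle, rose by 1.0 with probes at -0.15 and 2.16, and its groups overlapped on the probe mean. Cardiac ACTC1 stood at -0.13 (limma adjusted p = 0.405). Of 17 genes of myosin II and its regulators, 8 rose and 5 fell. MYL12A and MYL12B, near-identical light chains related to MYL9, rose by 1.18 and 0.90, so their separate values are uncertain. RHOC, a small GTPase upstream of myosin, rose by 1.06, and PPP1R12A, the targeting subunit of myosin phosphatase, fell by 0.91.

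Of 9 thin filament partners, 4 rose and 2 fell. CNN2, calponin 2, rose by 2.83, from -2.89 ± 0.055 in mock to -0.06 ± 0.080 (SD, n = 4, limma adjusted p = 2.19e-08). This change stood beside the 0.08 of CNN3 and the 0.21 of CNN1, the smooth muscle calponin, whose call was lost with arrays centred on their median. TMOD1, a tropomodulin that caps the pointed end of tropomyosin-coated filaments, fell by 2.53, from 1.46 ± 0.033 to -1.06 ± 0.009 (limma adjusted p = 8.69e-09). TMOD2 fell by 0.54 and TMOD3 rose by 0.25, the latter not called with arrays centred on their median.

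Of 15 cross-linkers and adhesion plaque genes, 6 rose and 6 fell. FLNA, filamin A, rose by 0.68 with probes from 0.23 to 1.28. CSRP1, a LIM protein, rose by 0.66 (1.014 without mock replicate 1), with probes at -0.01 and 1.34. The groups overlapped on its probe mean. TLN1 fell by 1.17 with probes at -2.21 and -0.12. SYNPO2, synaptopodin 2, fell by 0.73 (-1.258 without CFC1 replicate 2), with probes at -0.97 and -0.5. Its groups also overlapped on the probe mean. Of 13 actin turnover genes, 9 rose and 3 fell. TMSB4X, the actin monomer-binding thymosin beta 4, rose by 2.41, TMSB10, its relative, by 0.72, CAPG, a gelsolin-family capping protein, by 0.68, and CAPZA1, a capping protein subunit, by 0.65. SRF rose by 0.43, while its coactivator MRTFA stood at 0.01 (limma adjusted p = 0.947). The coactivators MRTFB and MYOCD fell by 0.52 and 0.40. Their probes disagreed in size, at -0.89 and -0.15 for MRTFB and at -0.76 and -0.04 for MYOCD. Quantile normalization moved these by over 1.5 times with the call kept: ACTG1 to 0.558, ACTA1 to 0.498, CNN1 to 0.47, PPP1R12A to -0.508, TMOD2 to -0.341, SYNPO2 to -1.83, CAPG to 1.043 and MRTFB to -0.325.

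**Figure D4:**
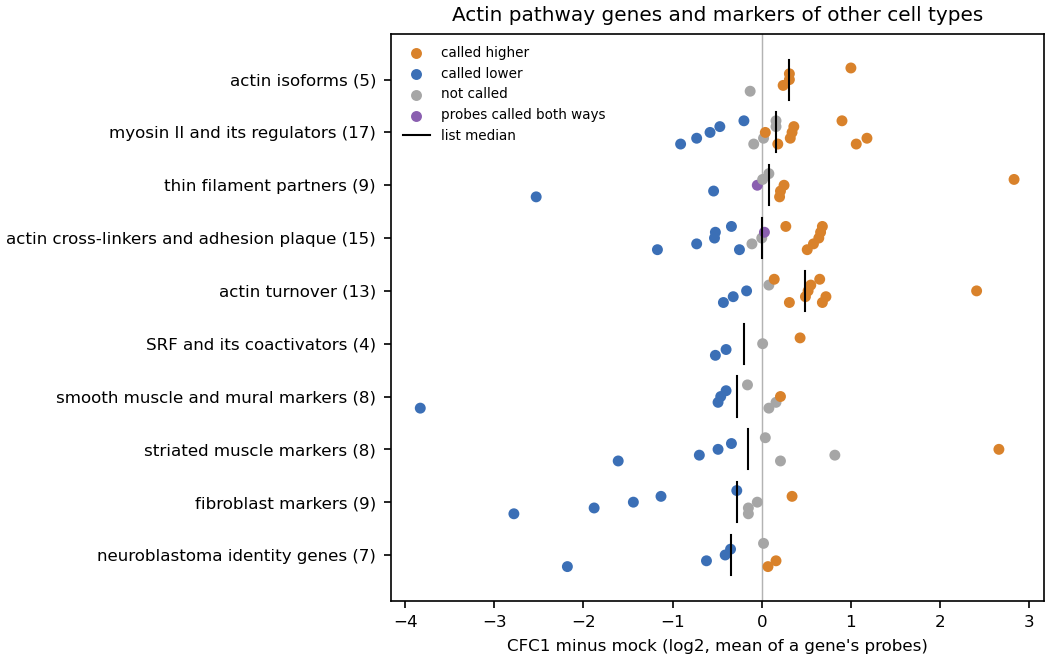
Difference between the groups, arrays labelled CFC1 minus mock arrays (log2, mean of a gene's probes), for each measured gene of 6 actin pathway lists and 4 marker lists, with the number of genes in parentheses. Points are genes coloured by call and vertical lines are list medians; CNN2 and TMSB4X stand at 2.83 and 2.41, and TMOD1 at -2.53.

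Several members are also expressed by muscle and stromal cells, and markers of such cells moved as follows. The shares over all named genes were 30.0% higher and 28.0% lower, with a median of -0.09, and these lists are short. Of 8 smooth muscle and mural markers, 1 rose and 4 fell, with a median of -0.28. RGS5, of pericytes, fell by 3.83, PDGFRB, a mural receptor, by 0.46, and DES, desmin, by 0.49, the last not called after quantile normalization (-0.354). Summed levels of the lists cannot be given, because the values hold no level. Of 8 striated muscle markers, 1 rose and 4 fell, with DES counted in this list as well. CKM, muscle creatine kinase, rose by 2.66, TNNT2, a cardiac troponin that binds tropomyosin, fell by 1.61 (-1.023 after quantile normalization), and TNNI1, a slow muscle troponin, by 0.70, not called after quantile normalization (-0.492). Of 9 fibroblast markers, 1 rose and 5 fell. PDGFRA stood at -2.78, COL3A1 at -1.88 (-1.246 after quantile normalization), COL1A1 at -1.44 and DCN at -1.13 (probes at -2.1 and -0.17). Of 7 neuroblastoma identity genes, 2 rose and 4 fell, with the transcription factor ISL1 at -2.18 and the noradrenaline-synthesis enzyme DBH at -0.62 (-0.308 after quantile normalization). GATA3 stood at -0.35 and HAND2 at -0.41, the latter not called after quantile normalization (-0.131). The part of these markers in the values of the members was not tested.

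The pattern most like that of TPM2 was sought among 18199 named protein-coding genes by Euclidean distance over the 8 arrays, on the mean of each gene's probes. The 5 nearest were MGST2, a membrane glutathione transferase (distance 1.56), GRB10, an adaptor of insulin receptor signalling (1.64), RHBDF2, an inactive rhomboid (1.77), PON2, a paraoxonase (1.79), and NOTCH2, a Notch receptor (1.84). They lie on the log2 scale at -8.01 to -7.80 in the mean of the mock arrays, beside -8.53 for TPM2. This nearness follows from how they were picked. The values are relative to each probe's baseline and are not levels. None of the 5 is an actin-binding protein.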

How the data were processed

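The deposited table holds values on a logarithmic scale, read here as log2, for 8 one-color Agilent arrays labelled with Cyanine3 per the labels' protocols. How background was treated, how arrays were scaled and which baseline was used is not given in the sources at hand. No probe lay above 0 on every array or below 0 on every array. Of 50739 rows, 140 control spots were left out. Symbols came from the platform annotation, updated through the RefSeq gene table of GRCh38.p14: 31993 probes had 1 symbol and 18606 stayed unnamed.

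All 50599 probes were fitted by lmFit and eBayes of limma 3.58.1 under R 4.3.3, comparing 4 mock with 4 CFC1 arrays with no block, and p-values were adjusted by Benjamini-Hochberg over all of them, two-sided, with a threshold of 0.05. Errors of members are 95% intervals of that fit, and the number of arrays limits the precision. The fit was also run on simulated data with known changes. Those data had independent noise and few changed probes, so the run does not give the error rate of the calls here. Tables and figures used Python 3.11.15, pandas 2.3.3 and matplotlib 3.10.9. The members and gene lists were chosen with earlier results of these data known. All members are named. From each list the text names up to 4 called genes with the largest difference, uncalled genes of lists of 5 or fewer, and the 5 genes nearest to the member with the largest difference. CNN1, the neighbouring genes, TPM3P9 and ACTA2-AS1 were named after their values were seen. Some genes of the lists are not reported here.

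Alternatives were quantile normalization, centring of each array on its median, scaling to the E1A control spots, a block for the replicate number, unmoderated variances, a prior variance with a trend, weights per array, the mean of a gene's probes, values read as natural logarithms, and leaving out each array.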

Additional observations from a re-analysis of the deposited data

Results flagged for a closer look

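In 3 of 40 groups of 4 arrays, 1 array stood apart from the others of its group on a member's probe, where chance gives about 1 in 20. Apart means that the gap to the nearest array, as a share of the group's range, was above Dixon's 95% critical value for 4 samples. The gaps of mock replicate 2 on the TPM2 probe A_33_P3270599 (79.2% of the range) and the TAGLN probe A_23_P87013 (74.9%) were larger in log2 units but below that value, because the other mock arrays were also spread. Mock replicate 2 was lowest on the TPM1 probe A_23_P206018 at -0.326, with the other mock arrays between -0.11 and -0.09. CFC1 replicate 1 was lowest on the TPM3 probe A_33_P3223990 at -0.145, with the others between -0.02 and 0.00. CFC1 replicate 3 was highest on the CNN3 probe at 0.112, with the others between -0.04 and -0.03. These are small differences on probes where the groups were close.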

How the results depend on the processing

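All 20 member probes kept their sign over the 16 alternatives that give a value per probe. The number of them past the threshold ran from 15 to 17 around 16, and from 15 to 16 leaving out 1 array. With the replicate number as a block 16 member probes, 21980 probes in all and 69 list genes passed, against 16, 21289 and 71 without it. Deviations from the group means of same-numbered arrays correlated at 0.132, 0.197, 0.095 and 0.173. Differently numbered arrays were not compared, so these values cannot decide whether the numbers mark pairs. The main fit had no block. With the mean of a gene's probes 7 of the 10 genes passed, against 12456 of all 21524 named genes. Leaving out 1 array gave 20144 to 20472 probes and 67 to 70 list genes. The other settings fitted per probe gave 18115 to 21980 and 60 to 73. The median difference of all probes was -0.055 after quantile normalization. It brought ROCK1, of the myosin list, from -0.20 to 0.048. If the logarithm were natural, the TPM2 differences would be 11.49 and 12.96. The CFC1 difference passed with array weights (-0.805, limma adjusted p = 0.046) and, leaving out 1 array, ran from -0.944 to -0.568, passing without CFC1 replicate 1 or mock replicate 4; over its 16 alternatives the adjusted p ran from 0.0376 to 0.133. Without background flags, how close dim values lie to background is unknown.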

Other observations

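Within the groups the members did not vary together in a common way. Deviations from the group means over the 8 arrays gave Pearson correlations of -0.86 to 0.86 over the 45 pairs of member genes, with a median of -0.07. They ran from 0.13 to 0.48 among the 3 TPM1 probes and from -0.80 to 0.79 among the 6 TPM3 probes. The median over 16917 pairs of probes of 1 gene on the array was 0.05, so the deviations of the arrays were hardly shared even by probes of 1 gene. All pairs share the same 8 arrays, with 6 degrees of freedom, and the values are a description.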
